A study of Mus musculus with 4 samples.

Results

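The nuclear-encoded genes of oxidative phosphorylation were taken from an RNA sequencing study of mouse cells that express a mutant histone. Members were the 90 of 20325 gene symbols in the deposited matrix that begin with Nduf, Uqcr, Atp5 or Cox followed by a digit from 4 to 8, or that read Sdha, Sdhb, Sdhc or Sdhd. The rule used names and no measured value, though it was set with earlier results of these data known. The cells were C3H10T1/2, a multipotent mesenchymal line from C3H mouse embryos, at passages 10 to 15 in serum-supplemented DMEM. All carried a stable FLAG-HA-tagged histone H3.3 transgene, wild type in 2 libraries (WT) and with lysine 36 replaced by methionine in the other 2 (K36M), a substitution known to inhibit H3K36 methyltransferases. The sources used here do not say whether a line was 1 clone or a pool, or whether replicates were separate cultures. The p-values therefore cover the spread between libraries of a group, which may be a technical one.

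Oxidative phosphorylation takes place in the inner mitochondrial membrane. Complex I oxidises NADH and complex II succinate, complex III passes the electrons to cytochrome c, complex IV hands them to oxygen, and complex V, the ATP synthase, uses the resulting proton gradient to make ATP. Most subunits are encoded in the nucleus and imported, while the catalytic membrane cores of complexes I, III and IV, and a pair of ATP synthase subunits, come from mitochondrial DNA. The mitochondrial-encoded genes were not in the deposited matrix under the mt- symbols looked for, and so were not analysed here.

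By textbook roles, complex I had 36 members, complex II 4, complex III 8, complex IV 20 and complex V 15. Ndufa4 and its paralogue Ndufa4l2, named after complex I, were placed with complex IV, to which Ndufa4 is now assigned. The other 7 were 5 complex I assembly factors (Ndufaf1, Ndufaf2, Ndufaf3, Ndufaf4 and Atp5sl, now called Dmac2), the coupling factor Atp5s, and Cox4nb, a subunit of an endoplasmic reticulum membrane complex (now Emc8) that matches by spelling only.

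Library totals were 23343297 to 56041798 expected counts (reads assigned to genes by a model, which need not be whole), with a K36M to WT depth ratio of 1.85. Levels are given as CPM, counts per 1000000 of the scaled library size. All 12 mesenchymal markers were detected, with a summed 50200 and 50540 CPM in WT and 32110 and 30280 CPM in K36M. In the test described below 4 of them were higher and 6 lower in K36M (83.3% called, against 75.6% of all genes). Thy1 was 11.2-fold higher and Fn1 3.04-fold lower. Markers of skeletal and heart muscle summed to 6.02 to 8.99 CPM, with Myog and Myod1 at 0 counts in all 4 libraries. Brown fat markers summed to 0.444 and 0.652 CPM in WT and to 2.41 and 3.05 CPM in K36M, with Ucp1 at 0 counts throughout and Dio2 at 1.78 and 2.1 CPM in the K36M libraries and 0 in both WT libraries. Blood, epithelial, endothelial and neural marker lists had higher sums in K36M, at 0.695 to 15.3 CPM in the WT libraries and 2.19 to 35.6 CPM in the K36M libraries. The highest of them in K36M were Tubb3, 1.92-fold higher, Hba-a1 (0.0807 and 0.261 CPM, then 26.7 and 25.3 CPM), Cdh1 (5.89 and 5.56 CPM, then 22.3 and 24.1 CPM) and Lyz2 (1.9 and 1.65 CPM, then 6.41 and 6.25 CPM). Krt8, Esrp1 and Cdh5 were also higher, at no more than 2.25 CPM, while Epcam, Cldn4, Hbb-b1 and Olig2 were at 0 counts in every library. Gfap, on the same neural list as Tubb3, was 3.32-fold lower (1.735 and 1.564 CPM in WT, 0.3698 and 0.6907 CPM in K36M). Their part in the results below was not tested.

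Most oxidative phosphorylation genes differed little between K36M and WT cells, and in both directions. Of the 90 members 84 passed the low-count filter. Of these 28 were higher and 22 lower in K36M at an adjusted p under 0.05 (edgeR quasi-likelihood test, Benjamini-Hochberg adjustment over all 13162 genes tested), so 59.5% were called, against a background of 75.6% over all genes. Among genes with a mean of at least 20 CPM the background was 78.7% (38.2% higher, 40.4% lower), and 47 of the 76 members in that range (61.8%) were called. Over all genes tested the background by direction was 38.5% higher and 37.1% lower. The WT and K36M libraries did not overlap in 60 of the 84 members, against 87.1% of all genes.

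The changes were small. The median absolute log2 fold change was 0.17 over the tested members, 0.378 over all genes and 0.287 over genes with a mean of at least 20 CPM. A change under 1.5-fold was found in 81 of 84 members (96.4%) and in 65.2% of all genes. The 3 larger ones were Cox6a2, the muscle isoform of a complex IV subunit, the assembly factor Ndufaf3 and Cox4nb. No member was among the 594 genes of the authors' deposited table, which lists ratios over 10 or under 0.1. The 2 libraries of a group differed at the median member by 3.23% in WT and 3.86% in K36M, close to the 3.08% and 3.72% of all genes with at least 20 CPM.

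**Figure D1:**
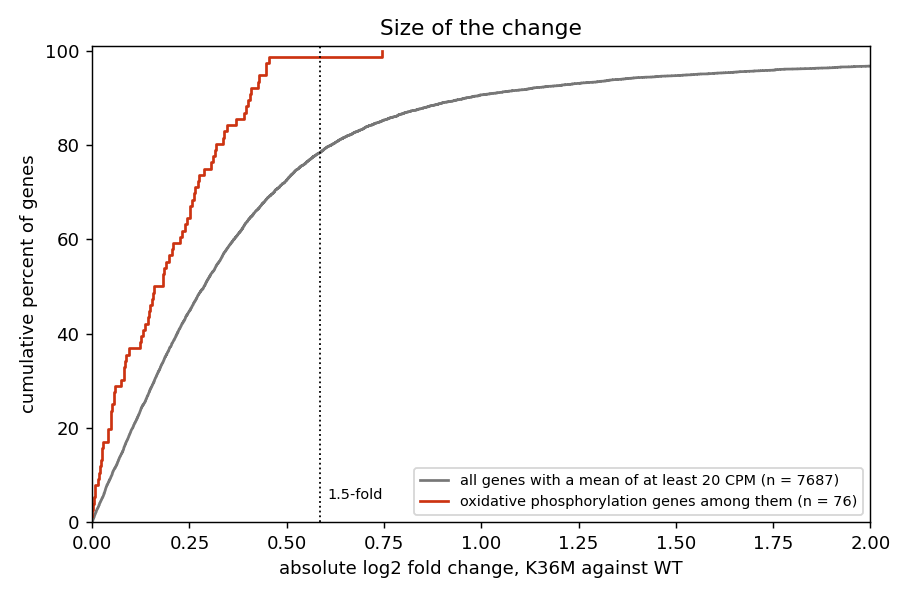
Cumulative percent of genes (vertical axis) by absolute log2 fold change between K36M and WT (horizontal axis, cropped at 2), for all genes with a mean of at least 20 CPM and for the members among them. The member curve lies to the left: 98.7% of these 76 members and 78.4% of these 7687 genes changed by less than 1.5-fold, the dotted line.

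The balance of directions depended on how libraries were scaled. With the main scaling (TMM) 28 members were higher and 22 lower, with factors read from the authors' deposited table, 21 of them were higher and 33 lower, and with total counts alone 35 were higher and 17 lower. Over all genes the split went from 5070 higher and 4879 lower to 4360 and 5709 and to 5542 and 4367. A scaling shifts all genes alike. The members' median log2 fold change was 0.0204 above that of all genes, and this gap was -0.064 with no low-count filter, 0.0438 at a mean of at least 5 CPM and -0.00676 without WT replicate 2. Of the 50 member calls, 37 (21 higher, 16 lower) kept their direction and stayed past the threshold in every alternative fit that tested them, and no call turned into a call in the opposite direction. The share of calls that held over all genes was not counted, so this is not shown to be particular to the members.

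**Figure D2:**
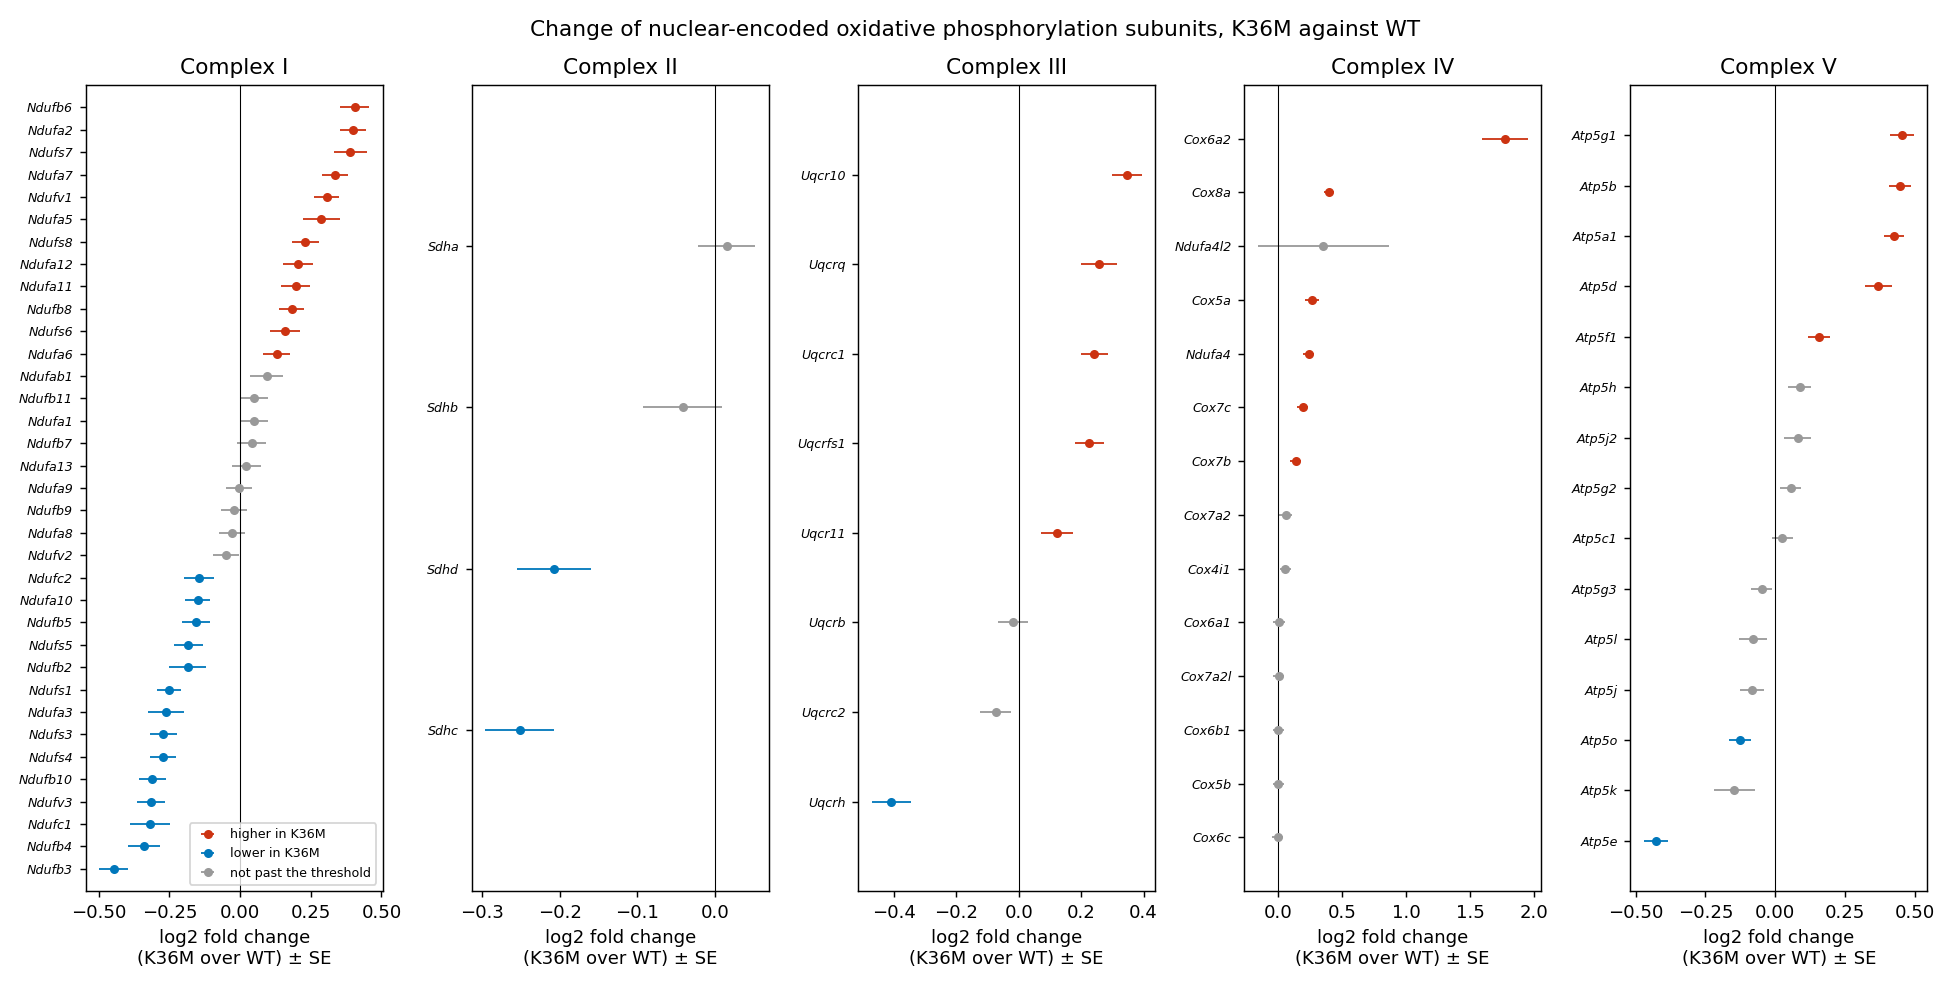
Log2 fold change of tested subunits and isoforms, K36M over WT, with its standard error (horizontal axes, which differ between panels), by complex. Red and blue points were past an adjusted p of 0.05, grey points were not. Complexes I and V hold members on both sides. Complex IV holds 6 higher and 0 lower (42.9% called) and complex II 2 lower and 0 higher (50% called), against 75.6% of all genes.

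Complex V had the largest ratio of summed level between K36M and WT of the 5 complexes, and most of it lay in the genes for its catalytic subunits. The summed level of all 15 genes was 3672 and 3583 CPM in the WT libraries and 4292 and 4335 CPM in the K36M libraries, a ratio of 1.189. Without Atp5a1 and Atp5b, the alpha and beta subunits of the catalytic F1 head, the ratio was 1.029. Of the 15 genes 5 rose, 2 fell and 8 did not pass the test (46.7% called, against 75.6% of all genes). With the authors' factors 4 rose and 6 fell, and with total counts 8 rose and 1 fell. The median log2 fold change was 0.0551 and turned to -0.0305 under the authors' factors.

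Atp5b, whose product carries the catalytic sites, had 1176 and 1148 CPM in WT cells against 1577 and 1591 CPM in K36M cells. It rose 1.36-fold (log2 fold change 0.45 ± 0.0388 SE, edgeR adjusted p = 6.39e-09). Atp5a1, its partner in the F1 hexamer, had 624 and 609 CPM in WT cells against 823 and 834 CPM in K36M cells, 1.34-fold higher (edgeR adjusted p = 2.57e-09). Both K36M libraries were above both WT libraries for each gene. Atp5d, a subunit of the central stalk named here after its values were seen, rose from 132 ± 4.1 to 171 ± 12.9 CPM (SD, n = 2; log2 fold change 0.37).

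The other central stalk genes differed from these. Atp5e, the smallest central stalk subunit, had 102 and 103 CPM in WT cells against 75.8 and 76.6 CPM in K36M cells, and fell 1.34-fold (edgeR adjusted p = 5.44e-08). The gamma subunit gene Atp5c1, the rotating shaft, stood at 213 and 211 CPM in WT and 212 and 219 CPM in K36M, with groups that overlap. As a result the ratio of Atp5b to Atp5e counts, which no scaling changes, went from 11.5 and 11.1 in the WT libraries to 20.8 in both K36M libraries. The ratio of Atp5b to Atp5c1 went from 5.53 and 5.43 to 7.42 and 7.25. These ratios are not adjusted for transcript length, so only their change between libraries can be read.

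**Figure D3:**
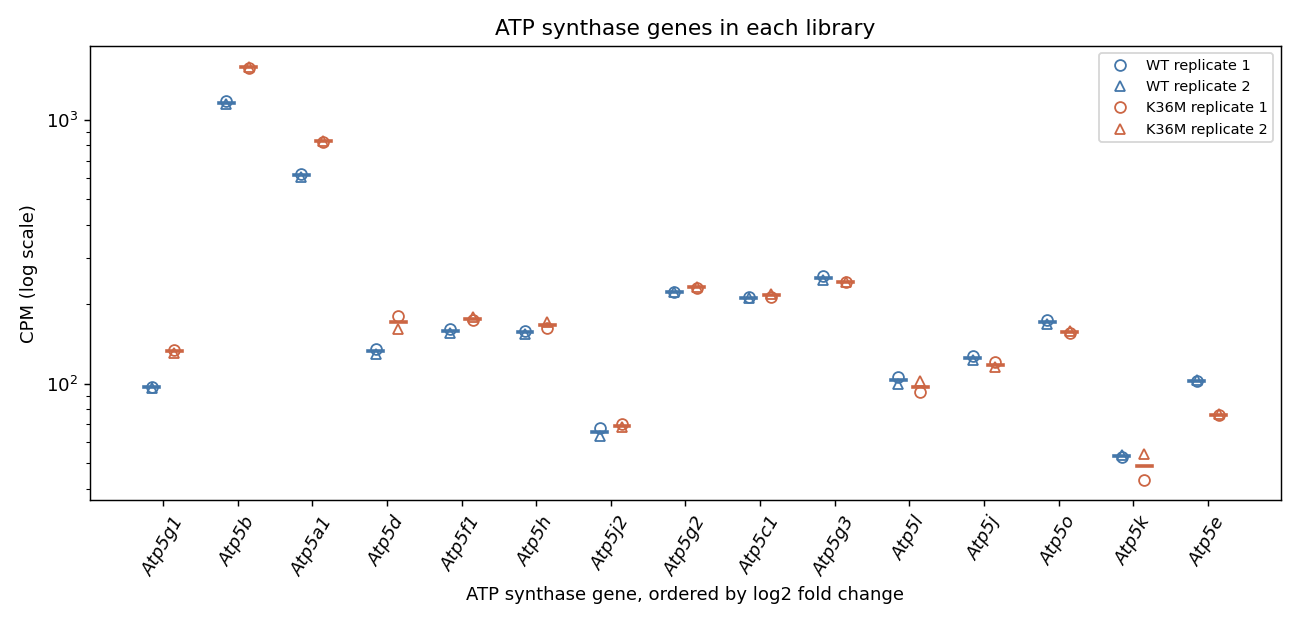
CPM of each ATP synthase gene (vertical axis, log scale) in the WT and K36M libraries, with bars at group means and genes ordered by log2 fold change. Atp5g1, Atp5b, Atp5a1 and Atp5d are separated upward in K36M and Atp5e downward, while the K36M libraries of Atp5k lie apart at 43.2 and 53.9 CPM. Levels of different genes are not adjusted for length.

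The c-ring of the ATP synthase is built from 1 mature protein that Atp5g1, Atp5g2 and Atp5g3 encode with different import sequences. Atp5g1 had 97.4 and 96 CPM in WT cells against 134 and 131 CPM in K36M cells, 1.37-fold higher (edgeR adjusted p = 1.71e-08), close to Atp5b and Atp5a1. Atp5g2 (223 and 223 CPM in WT, 230 and 233 CPM in K36M, edgeR adjusted p = 0.181) and Atp5g3 (255 and 247 CPM, then 242 and 243 CPM, edgeR adjusted p = 0.239) did not pass the test. Atp5g2 was past the threshold and higher with upper quartile scaling (edgeR adjusted p = 0.0254) and total counts (0.0154), and Atp5g3 lower with the authors' factors (0.00299). Atp5g1 made up 16.9% and 17% of the counts of the 3 genes in WT and 22.1% and 21.6% in K36M, with exact (Clopper-Pearson) 95% intervals of 16.3% to 17.6% in both WT libraries and of 21.7% to 22.6% and 21% to 22.1% in K36M. Intervals here cover counting error only, since reads carried no molecular identifiers.

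Of the peripheral stalk, which holds the head against the ring, Atp5f1 (subunit b, named after its values were seen) rose from 158 ± 4.01 to 176 ± 3.25 CPM. Atp5o (the oligomycin sensitivity protein) had 174 and 168 CPM in WT cells against 155 and 158 CPM in K36M cells and fell 1.09-fold (edgeR adjusted p = 0.00813), but did not pass without WT replicate 1 (edgeR adjusted p = 0.142), with upper quartile scaling (0.0644) or with total counts (0.0951). Atp5h and Atp5j did not pass, nor did the small membrane subunits Atp5j2, Atp5k and Atp5l. Their log2 fold changes ran from -0.15 to 0.09.

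Complex I, the NADH dehydrogenase, changed in both directions, and under the main scaling its summed level was nearly the same in both groups. Its 36 genes summed to 2056 and 2013 CPM in WT and to 2056 and 2035 CPM in K36M. Of them 12 rose, 14 fell and 10 did not pass the test (72.2% called, close to the 75.6% of all genes), with log2 fold changes from -0.447 to 0.405. The median was -0.0122. It was -0.098 under the authors' factors and above 0 under upper quartile scaling (0.0289) and total counts (0.0383). The ratio of summed complex V to summed complex I counts, free of scaling, went from 1.79 and 1.78 in WT to 2.09 and 2.13 in K36M.

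The counts can be set out by position, from the arm that protrudes into the matrix to the arm within the membrane. Of 10 genes of the N module, where NADH is oxidised, 6 rose and 3 fell (90% called, against 75.6% of all genes). Of 5 genes of the Q module, where ubiquinone is reduced, 3 rose and 1 fell (80% called). Of 21 genes of the membrane arm and others, 3 rose and 10 fell (61.9% called). With the authors' factors these counts became 4 and 4, 3 and 2, and 1 and 12, and with total counts 6 and 3, 3 and 1, and 4 and 6. The difference between the arms was not tested.

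The catalytic core subunits did not move together. Ndufv1, which binds NADH and flavin, had 78.9 and 79.6 CPM in WT cells against 98.4 and 97.6 CPM in K36M cells, 1.24-fold higher (edgeR adjusted p = 4.47e-06). Ndufs1, the largest iron-sulfur subunit of the same module, had 111 and 110 CPM in WT cells against 93.5 and 91.9 CPM in K36M cells, 1.19-fold lower (edgeR adjusted p = 3.24e-05). The ratio of Ndufv1 to Ndufs1 counts therefore went from 0.711 and 0.725 to 1.05 and 1.06, again free of scaling. Their neighbour Ndufv2 did not pass (log2 fold change -0.05).

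Of the Q module core, Ndufs7 had 45.4 and 43.8 CPM in WT cells against 61.8 and 54.7 CPM in K36M cells, 1.31-fold higher (edgeR adjusted p = 6.57e-06). Ndufs8 rose 1.17-fold and Ndufs3 fell 1.21-fold.

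Among accessory subunits, the furthest apart were genes of 1 family of the membrane arm. Ndufb6 had 40.8 and 38.8 CPM in WT cells against 54.3 and 50.9 CPM in K36M cells, 1.32-fold higher (edgeR adjusted p = 1.16e-06). Ndufb3 had 39.9 and 39.4 CPM in WT cells against 29.2 and 28.9 CPM in K36M cells, 1.36-fold lower (edgeR adjusted p = 2.99e-07). The groups did not overlap for either gene. Ndufb4 (52.9 and 50.6 CPM, then 38.6 and 43.7 CPM) and Ndufc1 (23.4 and 21.5 CPM, then 17.9 and 18.1 CPM) fell 1.27-fold and 1.25-fold. Ndufa2, an N module subunit, rose from 59.9 ± 0.737 to 79 ± 0.29 CPM.

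The other called genes of complex I, named after their values were seen, followed no single direction in the N module and mostly fell in the membrane arm. In the N module Ndufa7, Ndufa12, Ndufa6 and Ndufs6 rose by log2 fold changes of 0.13 to 0.34, while Ndufv3 and Ndufs4 fell, at -0.32 and -0.27. Ndufs4, an accessory subunit known from inherited complex I deficiency, had 56.2 and 56.1 CPM in WT cells against 46.7 and 46.1 CPM in K36M cells, with no overlap. In the Q module Ndufa5 rose 1.22-fold. In the membrane arm and the rest, Ndufa11 (1.15-fold) and Ndufb8 (1.14-fold) rose. Ndufb10, Ndufa3, Ndufb2, Ndufs5, Ndufb5, Ndufa10 and Ndufc2 fell, by log2 fold changes of -0.31 to -0.14. The nearest to no change was Ndufa9, a subunit beside the quinone site, with 60.2 and 60 CPM in WT cells against 60.2 and 59.7 CPM in K36M cells. Of the 26 calls in complex I, 8 higher and 9 lower held in every alternative fit.

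Complex II, succinate dehydrogenase, is also an enzyme of the citric acid cycle and has only nuclear subunits. Its membrane anchors fell and its catalytic subunits did not pass the test (50% called, against 75.6% of all genes). Sdhc had 111 and 110 CPM in WT cells against 90.4 and 95.5 CPM in K36M cells, 1.19-fold lower (edgeR adjusted p = 5.43e-05). Sdhd had 96.2 and 94.9 CPM in WT cells against 79.7 and 86.1 CPM in K36M cells, 1.16-fold lower (edgeR adjusted p = 0.000692). Both K36M libraries were below both WT libraries for each anchor. The flavoprotein Sdha (293 and 295 CPM in WT, 304 and 290 CPM in K36M) and the iron-sulfur protein Sdhb (85.9 and 83 CPM, then 78.4 and 86.2 CPM) overlapped between the groups. The ratio of Sdhc to Sdha counts, free of scaling, went from 0.379 and 0.373 in WT cells to 0.298 and 0.329 in K36M cells. Sdhb was past the threshold and lower with the authors' factors (edgeR adjusted p = 0.0307) and without K36M replicate 2 (0.0369).

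In complex III, the cytochrome bc1 complex, 5 of 8 genes rose, 1 fell and 2 did not pass (75% called, against 75.6% of all genes). With the authors' factors 4 rose and 2 fell, and 4 rose with DESeq2's Wald test and without WT replicate 1, WT replicate 2 or K36M replicate 1. The median log2 fold change of 0.175 kept its sign under every scaling run (0.0887 to 0.225). Uqcrfs1, the Rieske iron-sulfur protein, had 76.2 and 73 CPM in WT cells against 86.9 and 87.8 CPM in K36M cells, 1.17-fold higher (edgeR adjusted p = 0.000194). Uqcr10, a small subunit, rose 1.27-fold, Uqcrq 1.2-fold and the core protein gene Uqcrc1 1.18-fold, and the fifth riser was Uqcr11 (log2 fold change 0.12), named after its values were seen. Uqcrh, the hinge protein near cytochrome c1, went the other way, at 111 and 105 CPM in WT and 74.6 and 89.5 CPM in K36M, 1.33-fold lower (edgeR adjusted p = 1.31e-05). Its K36M libraries differed by 1.2-fold, after Atp5k (1.25-fold) the widest gap among members with at least 20 CPM, yet both lay below both WT libraries. The ratio of Uqcr10 to Uqcrh counts went from 0.394 and 0.411 in WT cells to 0.753 and 0.608 in K36M cells. Uqcrc2, the other core protein gene, and Uqcrb had overlapping groups. The gene of a further subunit, Cyc1 (cytochrome c1), falls outside the naming rule and is not in these counts.

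Complex IV, cytochrome c oxidase, held no tested gene that fell under any of the 5 scalings. With no low-count filter 6 of its genes were called higher and 1 lower. Of the 11 widely expressed subunits 5 rose and 6 did not pass the test (45.5% called, against 75.6% of all genes). The complex summed to 1506 and 1504 CPM in WT and to 1640 and 1635 CPM in K36M. Cox8a had 169 and 172 CPM in WT cells against 226 and 222 CPM in K36M cells, 1.32-fold higher (edgeR adjusted p = 2.39e-08). Cox5a (98.5 and 90.9 CPM, then 109 and 119 CPM) rose 1.2-fold and Ndufa4 (103 and 99.7 CPM, then 117 and 122 CPM) 1.18-fold. Cox7c and Cox7b rose 1.14-fold and 1.10-fold, the latter not past the threshold with the authors' factors (edgeR adjusted p = 0.319) or without WT replicate 2 (0.206). The other 6 had log2 fold changes from -0.00165 to 0.0599, with overlapping groups. Cox4i1, Cox6a1, Cox6b1 and Cox7a2 were among them, and Cox4i1 passed under total counts (edgeR adjusted p = 0.0256), upper quartile scaling (0.0428) and without K36M replicate 2 (0.00332). Cox7a2 passed under total counts (edgeR adjusted p = 0.0488). Cox7a2l, which joins complexes III and IV into supercomplexes, stood at 179 and 178 CPM in WT and 172 and 187 CPM in K36M.

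**Figure D4:**
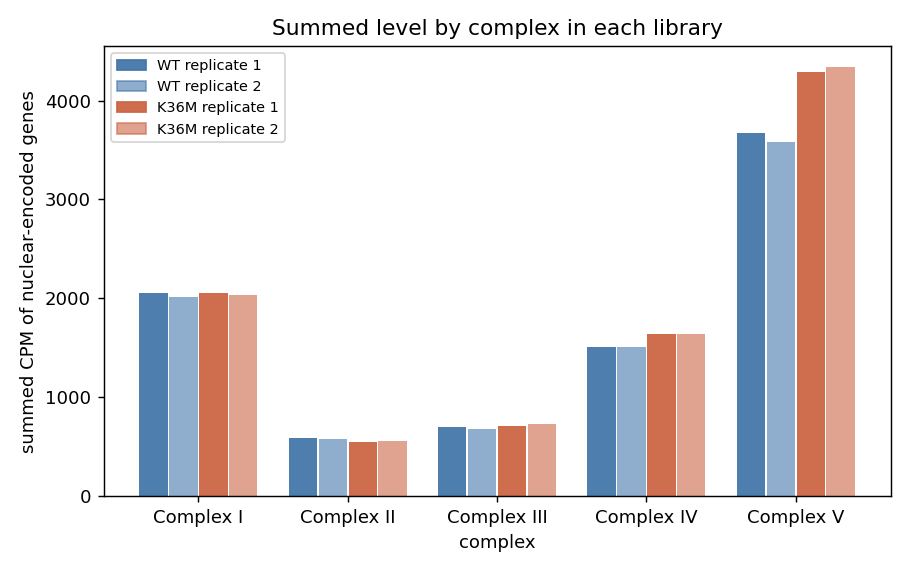
Summed CPM of the nuclear-encoded members of each complex (vertical axis, from 0) in each library. The K36M bars stand above the WT bars for complexes IV and V, by ratios of group means of 1.088 and 1.189, and for complex III by 1.044, and below them for complex II, by 0.95. Sums are not adjusted for transcript length, so heights of different complexes are not comparable. They were taken under the main scaling (TMM) only. The authors' factors shifted log2 fold changes by -0.0862 at the median gene, and total counts by 0.0502. Ratios near 1 therefore depend on the scaling.

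Several complex IV subunits have alternative isoforms that are used in heart and skeletal muscle, lung or testis. Cox6a2, the heart and muscle form, had 34 and 35 counts in WT and 306 and 151 counts in K36M, or 1.37 and 1.52 CPM against 5.39 and 4.35 CPM. It rose 3.42-fold (log2 fold change 1.77 ± 0.177 SE, edgeR adjusted p = 4.38e-08). It made up 0.98% and 1.1% of the counts of Cox6a1 and Cox6a2 in WT (exact 95% intervals 0.68% to 1.37% and 0.768% to 1.53%) and 3.57% and 3.22% in K36M (3.19% to 3.98% and 2.73% to 3.76%), so the widely expressed Cox6a1 held nearly all counts in every library. Of the 3 muscle markers that passed the low-count filter, Actn2 was 1.90-fold higher, Tnnt2 2.12-fold lower and Tnnt3 not called. The other muscle markers listed had at most 0.282 CPM in any library. Whether they bear on the rise of Cox6a2 was not tested.

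**Figure D5:**
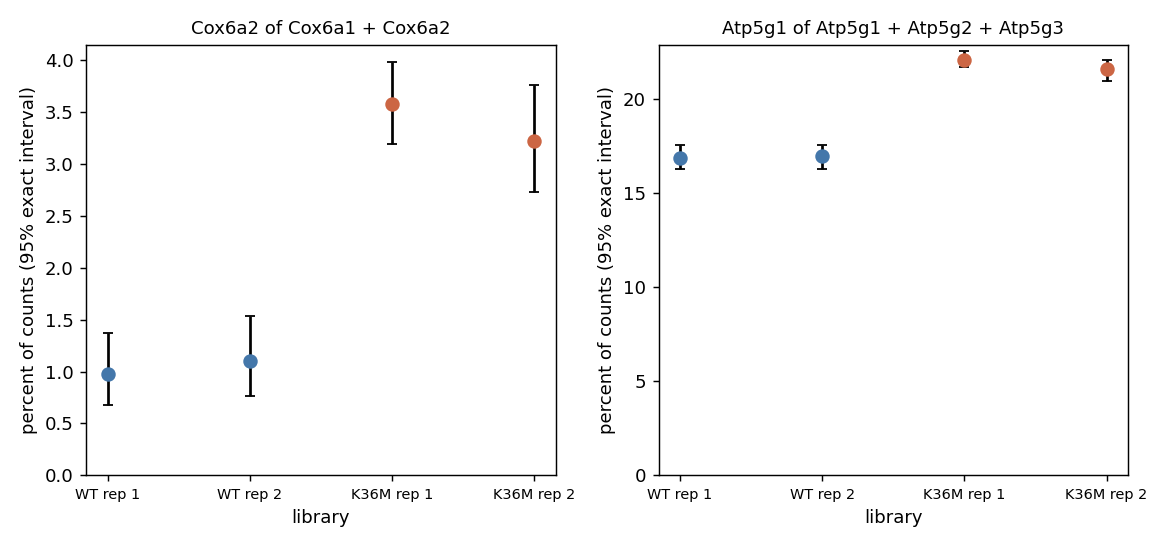
Percent of counts held by Cox6a2 among the Cox6a genes (left) and by Atp5g1 among the c-ring genes (right) in each library, with exact 95% intervals that cover counting error only. The K36M intervals lie above the WT intervals in both panels, which have different vertical scales.

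The remaining alternative forms were near or below detection. Cox4i2, the lung form of Cox4, had 11 and 7 counts in WT and 10 and 5 in K36M. Its ratio of K36M to WT, 0.435 after scaling for depth, had a counting interval of 0.204 to 0.914. Cox7a1, the muscle form of Cox7a, had 1 count in each WT library and 7 and 6 in K36M, a ratio of 3.39 (counting interval 0.768 to 31). Cox8b had 5 and 1 counts in the WT libraries and none in either K36M library. With a floor of 3 counts put in for the empty group, it was 3.83-fold lower. Cox7b2 had 0 in WT and 6 and 3 in K36M, 1.57-fold higher on the same basis. Neither value allows for the counting error of the other group, so neither is a lower bound. Cox6b2 had 0 counts in WT and 3 over both K36M libraries, at the floor, and Cox8c had 0 counts in all 4 libraries. These 6 genes were the members that did not pass the low-count filter. Ndufa4l2, a hypoxia-inducible paralogue of Ndufa4, passed it with 3 and 10 counts in WT and 22 and 10 in K36M and was not called (edgeR adjusted p = 0.544).

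The complex I assembly factors were few and did not rise. Ndufaf3 had 3.83 and 4.65 CPM in WT cells against 2.89 and 2.42 CPM in K36M cells, 1.57-fold lower (edgeR adjusted p = 0.000917), and Ndufaf1 fell from 15.7 ± 0.275 to 12.6 ± 1.14 CPM, both named after their values were seen. Ndufaf2, Ndufaf4, Atp5sl and Atp5s did not pass. Cox4nb, no part of a respiratory complex, had 87.5 and 88.2 CPM in WT cells against 54.2 and 50.3 CPM in K36M cells, 1.68-fold lower (edgeR adjusted p = 1.01e-10).

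Genes around the respiratory chain were counted in fixed lists, with the same background. Of 29 assembly factors outside the naming rule that were tested 4 rose and 8 fell (41.4% called, median log2 fold change 0.0505). The complex IV factor Surf1 stood lowest (log2 fold change -0.82) and Ccdc56, also a complex IV factor, highest (0.83). Of 18 citric acid cycle and pyruvate dehydrogenase genes 5 rose and 7 fell (66.7% called, median -0.0423), with Mdh2 at 0.57 and Pdhx at -0.81. Both ends of these lists, like the other genes of this paragraph, were named after their values were seen.

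Of 17 regulators of mitochondrial gene expression 8 rose and 5 fell (76.5% called, against 75.6% of all genes, median 0.163). The coactivator gene Ppargc1b stood at a log2 fold change of 0.90, the respiratory factor gene Nrf1 at 0.22 and the GABP subunit gene Gabpa at -0.13, all past the threshold, while Ppargc1a and Tfam were not called. Of 21 genes of carriers, import and mitochondrial structure 15 rose and 2 fell (81% called, median 0.191). The mitochondrial chaperone gene Hspa9 (log2 fold change 0.85) and the prohibitin gene Phb (0.79) stood highest there. Cytochrome c1 (Cyc1, 0.30), a subunit of complex III, and cytochrome c (Cycs, 0.41), to which that complex passes electrons, carry other names and are not members. Both rose, and Usmg5 and Atpif1 of the ATP synthase were not called.

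Mitochondrial ribosomal proteins, also nuclear genes for parts of the same complexes' production, gave a share of calls close to that of the members. Of 76 such genes 30 rose and 13 fell (56.6% called), with a median log2 fold change of 0.0832 and a median absolute change of 0.17. The difference from the oxidative phosphorylation genes was not tested.

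Promoter sequences were read because many genes of this group are known targets of the factors NRF1 and GABP. Windows from 250 bases before to 50 after the start were found for 74 members (80 windows, RefSeq, build GRCm38.p6, a newer build than the mm9 of the counts), and no sequence was at hand for the other 16, Atp5a1 and Cox6a2 among them. The NRF1 motif (GCGCA, any base, GCGC) was found on either strand in 19 of 80 member windows (23.8%) and in 4.6% of all 32851 windows. The YY1 motif AAGATGGCG was in 11.2% of member windows and 1.4% of all, the ETS motif CCGGAAGT of GABP in 6.25% and 3.89%, and the GC box GGGCGG in 42.5% and 35.7%. Motifs may overlap one another.

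Both members that rose and members that fell had windows with an NRF1 match. These were 6 of 27 windows of members that rose (22.2%), 4 of 19 of those that fell (21.1%) and 9 of 30 of those not called (30%). The 120 bases before the start are shown for 5 members with a match there, of which Ndufa5 and Ndufs6 rose, Ndufb4 and Sdhd fell and Sdha was not called, and for Atp5b, which rose and has none. Capitals mark NRF1 matches. Ndufa5 has another listed start, with no match in the 120 bases before it but 1 in its full window. The Ndufa5 windows overlap, and both are among the 6 counted above. A match is a string of letters and shows no binding.
Ndufa5, chr6:24527691-24527810, minus strand: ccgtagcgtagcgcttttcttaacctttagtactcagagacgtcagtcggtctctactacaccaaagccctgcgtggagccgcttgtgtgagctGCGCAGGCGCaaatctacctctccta
Ndufs6, chr13:73328483-73328602, minus strand: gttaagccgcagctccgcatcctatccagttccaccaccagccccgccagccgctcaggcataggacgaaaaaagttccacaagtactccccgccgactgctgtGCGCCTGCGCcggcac
Ndufb4, chr16:37654369-37654488, minus strand: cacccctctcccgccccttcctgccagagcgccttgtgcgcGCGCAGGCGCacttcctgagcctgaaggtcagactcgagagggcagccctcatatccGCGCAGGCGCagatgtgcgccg
Sdhd, chr9:50603850-50603969, minus strand: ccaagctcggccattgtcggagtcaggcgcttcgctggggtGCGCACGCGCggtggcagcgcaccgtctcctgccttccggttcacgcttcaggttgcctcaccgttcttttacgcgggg
Sdha, chr13:74350241-74350360, minus strand: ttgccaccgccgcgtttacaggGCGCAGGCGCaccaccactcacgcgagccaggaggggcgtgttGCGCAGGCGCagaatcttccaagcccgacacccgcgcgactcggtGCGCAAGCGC
Atp5b, chr10:128083187-128083306, plus strand: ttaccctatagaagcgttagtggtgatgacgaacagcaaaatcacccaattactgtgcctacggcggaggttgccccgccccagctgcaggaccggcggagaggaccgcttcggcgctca

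Many genes of this group have near-identical processed copies in the genome. Of the 90 members 82 had an expected count that was not whole (by over 0.005) in at least 1 library, a sign that reads were shared between places. The share over all genes was not counted, so this is not shown to be particular to the members. How reads of such copies were divided may affect single members, and was not tested.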

How the data were processed

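RNA of 4 C3H10T1/2 libraries (2 WT, 2 K36M, grouped by their titles) was sequenced from TruSeq libraries. The deposited matrix holds RSEM expected counts, which the authors used for EBSeq, per the file headers; Bowtie 1.0.0, RSEM 1.2.12 and build mm9 are named in the submitters' processing notes. The authors' deposited table of 594 genes gives log2 values and a linear ratio (fold) per gene. Those log2 values are matched to within 5e-09 by scaling the expected counts with a single factor for each library and adding 1, which gave the authors' factors.

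Expected counts were rounded. The test was edgeR 4.0.16, run in R 4.3.3 (filterByExpr, TMM, quasi-likelihood F test, Benjamini-Hochberg over 13162 genes, threshold 0.05). Standard errors are the log2 fold change divided by the square root of F. The common coefficient of variation was 3.33%, with 2 residual and 15.7 prior degrees of freedom. The script was checked on simulated counts. It called 21 of 50 genes changed 1.2-fold, 46 of 50 at 1.5-fold, 44 of 50 at 2-fold and 49 of 50 at 4-fold, with 12 false calls. Changes of 1.2-fold or less can therefore often be missed, and some larger ones were missed too. The simulation gave all genes and both groups the common coefficient of variation, so its rates hold for that setting only. Libraries of a group were not copies, with a mean chi-square of 3.72 (WT) and 7.62 (K36M) per gene. Alternatives were 4 other scalings, 2 other filters, DESeq2 1.42.0, limma-voom (limma 3.58.1), leaving out each library, and a replicate block.

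Members with full values were, per complex, up to 3 called higher and 3 called lower with the largest change at a mean of at least 1 CPM, complex II, catalytic core genes, alternative isoforms and Cox4nb. The counts include 1 member whose own values are not reported here. The members and lists were chosen with earlier results of these data known.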

Additional observations from a re-analysis of the deposited data

How the results depend on the processing

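Calls over all genes (9949) ranged from 7918 at a mean of 5 CPM to 10583 with no low-count filter, and every alternative kept the counts of members higher (21 to 35) and lower (17 to 33) within 1.5 times the main counts of 28 and 22. Leaving out each library gave 24 to 30 members higher and 18 to 26 lower. The numbers of replicates do not pair the libraries (correlation of deviations of same-numbered libraries -0.00526), and with the replicate block 9804 genes were called over all and 28 members were higher and 22 lower.

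The log2 fold changes given here turned sign and were of members not past the threshold before or after. With the authors' factors these were Sdha (-0.0708), Cox4i1 (-0.0294), Cox6a1 (-0.0778), Cox6b1 (-0.0852), Cox7a2 (-0.0262), Cox7a2l (-0.0794) and Atp5g2 (-0.0305). With total counts they were Ndufv2 (0.00208), Sdhb (0.00921) and Atp5g3 (0.00165). With no low-count filter they were Cox6b1 (-0.00604) and Cox7a2l (-0.000736). Leaving out 1 library at a time gave -0.0165 to 0.0499 for Sdha, -0.105 to 0.0312 for Sdhb, -0.0718 to 0.0838 for Cox6a1, -0.0447 to 0.035 for Cox6b1, -0.0495 to 0.068 for Cox7a2l and -0.323 to 1.49 for Ndufa4l2, the signs turning without K36M replicate 1 for Sdha and Sdhb and without more than 1 of the libraries for the Cox genes, and without WT replicate 1 for Ndufa4l2. With the authors' factors Ndufv2 and Atp5g3 were also past the threshold (log2 fold changes -0.134 and -0.135). The cause was not tested. With 2 libraries a group, a member not called may still differ by a small amount. The 6 members with few counts are limited by depth.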
